A study of Mus musculus with 20 samples.

Results

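Inhaled SD-101 combined with anti-PD-1 and a-CD4 was compared with SD-101 alone in CD44+CD8+ T cells purified from mouse lungs bearing 4T1 tumours, 4T1 being a mouse mammary carcinoma line that grows in the lung. Of the 20 Affymetrix arrays of the series, 10 entered this comparison: the 4 arrays labelled SD-101+anti-PD-1+a-CD4, called the triple arrays here, and the 6 arrays of SD-101. They were chosen by the treatment in their sample titles, and 17097 genes were read on each. The treatments were given intranasally according to the labels, which state no dose, time point, strain or age. Both groups therefore share the tumour line, the lung, the sort for CD44 and CD8, and SD-101, a ligand of the DNA receptor TLR9. They differ by 2 agents at once, anti-PD-1, an antibody that blocks the T cell checkpoint receptor PD-1, and a-CD4, which the labels name without describing. The labels do not say whether a group's numbered samples came from separate or pooled animals, so the p-values speak only of the spread among the arrays. The other arrays, 5 of Saline-CTRL and 5 of SD-101+anti-PD-1, shared the estimate of the spread, and the SD-101+anti-PD-1 arrays give the step between the compared groups.

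Antigen and costimulation drive CD8+ T cells into rapid division, and PD-1 is a receptor that restrains this after it meets its ligand. Resting and memory T cells keep the factor KLF2 high, which maintains receptors for leaving tissue through S1PR1, and lose it on activation. CD4+ T cells can help CD8+ T cells or, as regulatory T cells that express FOXP3, restrain them. TLR9 is read by B cells and plasmacytoid dendritic cells, and its own gene was near the lowest values of the arrays in both groups here, with a Tlr9 difference of 0.04 ± 0.12 (SE, log2).

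The labelled cell type was checked against its markers. Cd8a, a chain of the CD8 receptor, read 11.30, 9.45, 11.66 and 11.32 on triple replicates 1 to 4 and 10.38 to 11.18 with a median of 10.95 on the SD-101 arrays, all log2 values. Cd44, the adhesion receptor used in the sort, read 9.98, 10.41, 9.60 and 9.91 on the triple arrays and 8.85 to 10.37 on the SD-101 arrays, so both sorting markers were high in both groups. Cd4 read 3.15 to 3.51 on the triple arrays and 2.69 to 3.40 on the SD-101 arrays, near the floor in both groups. Genes of other lung cells were high too. The mean of the alveolar epithelial list was 8.37 to 9.51 on the triple arrays and 8.37 to 9.26 on the SD-101 arrays. The endothelial list's mean was 6.12 to 7.53 and 6.64 to 9.02. Which cells carried the differences below was not tested. Triple replicate 2 stood apart from the other triple arrays. Its mean over 15 T cell identity genes was 8.26, against 9.93, 10.21 and 10.04 on the other triple arrays and 9.21 to 10.14 on the SD-101 arrays. Ptprc, the pan-leukocyte gene CD45, was 10.32 there and 11.67 to 11.79 on the other triple arrays. Among the SD-101 arrays, replicates 1 and 2 had immediate early gene scores of 8.06 and 8.19, against 8.91 to 9.15 on the other 4, and replicate 4 had a macrophage score of 7.59. Triple replicate 1 had a neutrophil score of 8.89. The array's control probe set for the 5′ part of 18S ribosomal RNA also separated the groups, at 11.98 to 12.17 on the triple arrays and 11.30 to 11.80 on the SD-101 arrays. It was high on all SD-101+anti-PD-1 arrays too, at 11.84 to 12.31. Within saline the same probe set was split. Saline replicates 1 and 2 read 11.99 and 12, inside the range of the triple arrays. Saline replicates 3 to 5 read 11.44 to 11.50, inside the range of the SD-101 arrays. The 18S value thus also differed between arrays of the same treatment, and the cause was not tested. In these bulk samples, fewer cells of a type and less RNA per cell cannot be told apart.

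In the fit of all 17097 genes, 98 genes rose and 70 fell on the triple arrays, where a gene is called to have risen or fallen at a Benjamini-Hochberg adjusted p under 0.05 in limma. That is 0.983% of the genes tested, with 0.573% higher and 0.409% lower. Genes of cell division such as Knl1, Clspn, Kif11 and Foxm1 rose on the triple arrays. The quiescence factor Klf2, the immediate early genes Fos, Fosb and Junb, and the B cell genes Cd22 and Pou2af1 fell. So did the mast cell gene Cma1, the stem cell factor receptor gene Kit and the NK cell receptor gene Ncr1. The called rises ran from 0.31 to 2.40 log2 and the called falls from -0.43 to -3.31. The median difference over all genes was 0.03 log2, and 2846 genes had an unadjusted p under 0.05. All 4 triple arrays lay above all 6 SD-101 arrays for 513 genes, 3% of those tested, and below them for 294 genes, 1.72%. Of the called genes, 87 of the 98 that rose and 64 of the 70 that fell were separated in this way. Of the called genes, 12 are predicted genes, antibody segments and the like, which are counted and not named unless stated.

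The calls were sensitive to single arrays. Each of the 168 genes kept its direction whichever array was left out. For the 87 risen and 64 fallen genes with separate groups this was fixed in advance. Leaving out 1 of the 10 arrays at a time gave 35 to 220 called genes, and 15 of the 168 were called in all 10 fits. The count was 35 without triple replicate 1, 36 without triple replicate 2, 36 without SD-101 replicate 3, 44 without triple replicate 4, 48 without SD-101 replicate 1 and 90 without SD-101 replicate 4. It was 111 without SD-101 replicate 5 and 220 without SD-101 replicate 2. These 15 are Knl1, Clspn, Penk, B4galnt4, Ncr1, Cma1, Fos, Arg1, H2-Ob and Stab2, and also Stil, Kif2a, Ankle1, Cnr2 and the predicted gene Gm11110, which were named after their values were seen. With the marker scores of endothelial, alveolar, macrophage and B cells as covariates, 0 genes were called in limma and 945 had an unadjusted p under 0.05. With the 18S control value as a covariate, chosen after seeing the data, 1 gene, Gm11110, was called and 1349 had an unadjusted p under 0.05, and all 168 kept their direction. The part of other cells and of the 18S difference in the results below was not tested beyond these fits.

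**Figure D1:**
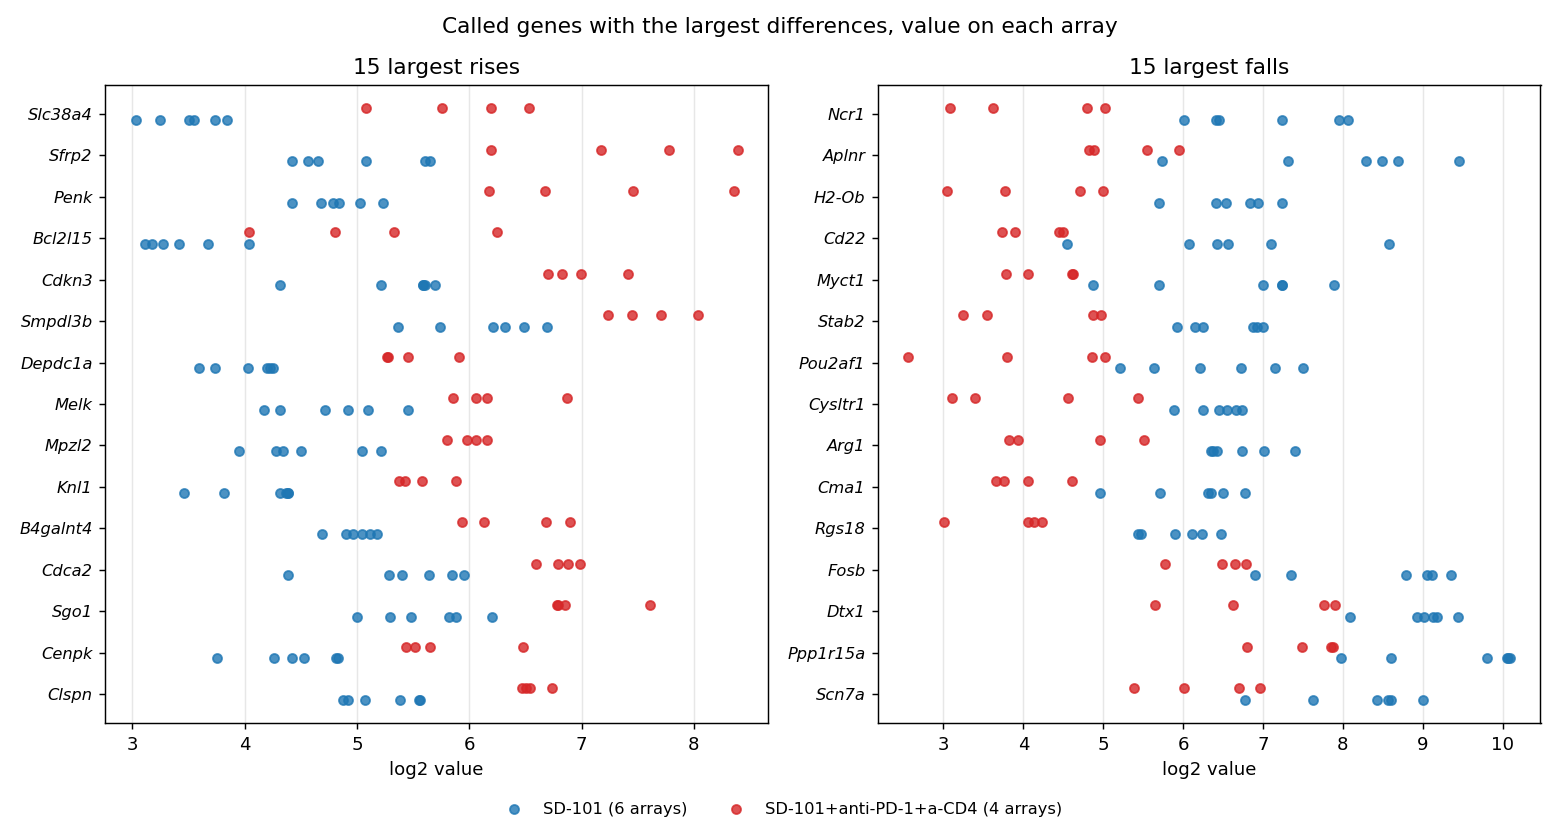
Log2 value (x axis) of the 15 named genes with the largest called rises (left) and falls (right), 1 row per gene and 1 point per array, for 6 SD-101 arrays (blue) and 4 SD-101+anti-PD-1+a-CD4 arrays (red). For Knl1 the triple arrays sit between 5.37 and 5.88, above the highest SD-101 array at 4.39, while for Aplnr, Scn7a and Bcl2l15 the groups overlap.

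Among the lists, cell cycle genes gave 3 of the 4 called rises. Of 45 measured genes of cell cycle and proliferation, 3 rose, 0 fell and 42 did not pass the test, against 0.573% of all genes that rose. All 45 differences were above 0, against 55.2% of all genes, with a median of 1.02 log2. Of the 45, 36 had every triple array above every SD-101 array, against 3% of all genes. The list's mean log2 value was 7.71, 8.32, 7.78 and 7.76 on the triple arrays and 6.31 to 7.24 on the SD-101 arrays, so the groups did not overlap. Triple replicate 2, which was low in T cell genes, was the highest array. Without it the list's median difference was 0.86, and 0 of its 45 members were called in limma. With the 18S covariate the median was 0.86, and with the 4 cell type scores it was 0.94.

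The promoters of the called members Kif11 and Kif4, and of Depdc1a, which also rose, are shown because CCAAT boxes and the cell cycle homology element TTTGAA are known in promoters of genes switched on in dividing cells. Each line gives the 150 bases before the RefSeq start in the gene's own direction (GRCm38.p6), with matches to either motif on either strand in capitals. ATTGG is CCAAT, and TTCAAA is TTTGAA, read from the other strand. Kif11 lies at chr19:37376232-37376381 (plus strand), Depdc1a at chr3:159495283-159495432 (plus strand) and Kif4 at chrX:100625915-100626064 (plus strand).
Kif11: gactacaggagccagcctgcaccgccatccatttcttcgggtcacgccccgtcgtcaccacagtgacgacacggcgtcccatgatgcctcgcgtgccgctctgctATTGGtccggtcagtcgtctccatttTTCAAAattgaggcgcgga
Depdc1a: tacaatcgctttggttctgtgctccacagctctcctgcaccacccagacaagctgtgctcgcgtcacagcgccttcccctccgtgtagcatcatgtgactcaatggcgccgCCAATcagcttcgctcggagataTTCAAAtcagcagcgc
Kif4: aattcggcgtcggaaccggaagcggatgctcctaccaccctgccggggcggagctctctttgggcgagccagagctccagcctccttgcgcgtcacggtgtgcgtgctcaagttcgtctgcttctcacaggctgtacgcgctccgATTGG
A CCAAT match was found in 28 of the 37 windows of the cell cycle list, 75.7%, and in 24.5% of all 32851 windows. A TTTGAA match was found in 8 of the 37 windows, 21.6%, and in 9.07% of all. Among windows of the 98 genes that rose, 40.4% held CCAAT. These shares describe letters in a window and say nothing of binding. Of other risen genes looked up, Knl1 and Sgo1 held neither motif in their windows. The windows of Clspn and Stil held CCAAT and not TTTGAA, and Foxm1 had no window.

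Kif11, the motor that pushes spindle poles apart, read 6.50, 7.05, 6.92 and 6.83 on triple replicates 1 to 4 and 4.91 to 5.93 with a median of 5.60 on the SD-101 arrays. The groups were separate, and the difference was 1.31 ± 0.25 (SE, limma adjusted p = 0.024). Its call was lost without SD-101 replicate 1, triple replicate 2 or triple replicate 4, with an adjusted p of up to 0.0677. Kif4, a motor bound to chromosome arms, read 5.93, 6.91, 6.38 and 6.29 against 4.64 to 5.59, a difference of 1.17 ± 0.26 (adjusted p = 0.0397). All triple arrays were again above all SD-101 arrays, but the call was kept in only 1 of 10 fits, that without SD-101 replicate 2, and the adjusted p reached 0.136 without triple replicate 2. Foxm1, a transcription factor of late cell cycle genes, read 4.96, 6.11, 5.17 and 5.08 against 4.12 to 4.71. Its difference of 0.97 ± 0.19 (adjusted p = 0.0262) fell to 0.71 without triple replicate 2 and lost its call there, and without SD-101 replicate 1 or 3. Of its 4 probe sets, 3 differed in the same direction, from -0.01 to 0.97.

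Members that missed the threshold lay close behind. Cdca3, a trigger of mitotic entry, differed by 1.07 ± 0.25 and Mybl2, a MYB-family regulator of the cycle, by 0.98 ± 0.23 (both adjusted p = 0.0501). Mki67, the gene of the proliferation marker Ki-67, read 9.39, 9.37, 9.41 and 9.26 on the triple arrays and 7.55 to 8.88 with a median of 8.40 on the SD-101 arrays. The triple arrays were nearly equal, and each was above every SD-101 array. The difference was 1.02 ± 0.26 (adjusted p = 0.0591), with an exact 2-sided permutation p of 0.00952, the smallest that the 210 regroupings of 4 against 6 arrays allow. Of 16 genes fixed singly and tested in this way, 4 had an exact p under 0.05, namely Mki67, Klf2, Foxp3 and Pdcd1. Without triple replicate 2 it was still 1.02 (adjusted p = 0.146).

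The largest named rises also held genes with known roles in chromosome segregation, replication or cell division that are not members of the list, a grouping made after their values were seen and not tested. Knl1, the kinetochore scaffold, read 5.42, 5.88, 5.58 and 5.37 on the triple arrays and 3.46 to 4.39 with a median of 4.34 on the SD-101 arrays. It rose by 1.44 ± 0.24 (adjusted p = 0.0127), and its 2 probe sets differed by 0.35 and 1.44. Clspn, which encodes claspin, an adaptor of the replication checkpoint, read 6.47, 6.73, 6.54 and 6.50 against 4.87 to 5.56 and rose by 1.33 ± 0.22 (adjusted p = 0.0127). Both kept their calls in all 10 fits that left out 1 array, with a highest adjusted p of 0.0425. Cdkn3, a phosphatase of cyclin-dependent kinases, rose by 1.65 ± 0.36 (adjusted p = 0.0371). Melk, a kinase of dividing cells, rose by 1.46 ± 0.33 (adjusted p = 0.0386). Cdca2, which brings a phosphatase to chromatin, rose by 1.39 ± 0.32 (adjusted p = 0.0424). Sgo1, the protector of centromeric cohesion, also rose by 1.39, with an SE of 0.31 (adjusted p = 0.0387). Cenpk, a kinetochore subunit, rose by 1.34 ± 0.27 (adjusted p = 0.0307), and its 2 probe sets differed by 0.06 and 1.34. All 4 triple arrays were above all 6 SD-101 arrays for these 7 genes.

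Their calls were less steady than those of Knl1 and Clspn. Cdkn3, Cdca2 and Sgo1 kept theirs in only 1 of 10 fits, without SD-101 replicate 2, and Melk in 2, without SD-101 replicate 2 or 5. Without triple replicate 2 their adjusted p lay between 0.113 and 0.132. Cenpk was lost without SD-101 replicate 1 or 3 or triple replicate 1, 2 or 4, with an adjusted p of up to 0.0943. Depdc1a rose by 1.47 ± 0.26 (adjusted p = 0.0177) and was lost only without triple replicate 2, at 0.0558. Other called genes of this kind, chosen after their values were seen, were Stil, a centriole duplication factor (1.15), the kinesin Kif2a (0.56), the spindle checkpoint gene Mad2l1 (0.95), the condensin subunit Ncaph (0.84) and the DNA repair genes Brca2 (0.94), Fancf (0.77) and Rad51c (0.65). The 5 probe sets of Kif2a differed by -0.14 to 0.56, and the 2 of Fancf by 0.07 and 0.77.

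The SD-101+anti-PD-1 arrays lay near the SD-101 arrays for these genes. The median over the 45 genes was -0.11 log2 for SD-101+anti-PD-1 against SD-101, with 0 called, and 1.11 for the triple arrays against SD-101+anti-PD-1, with 11 risen and 0 fallen. Over all genes, 816 (4.77%; 3.52% higher, 1.25% lower) and 364 (2.13%; 0.948% higher, 1.18% lower) were called in these comparisons, which share arrays with each other and with the main comparison. Kif11 differed by -0.39 in the former and rose by 1.70 in the latter (adjusted p = 0.00493). Foxm1 differed by -0.11 and rose by 1.08 (adjusted p = 0.012). Knl1 differed by 0.11 and rose by 1.33 (adjusted p = 0.012).

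**Figure D2:**
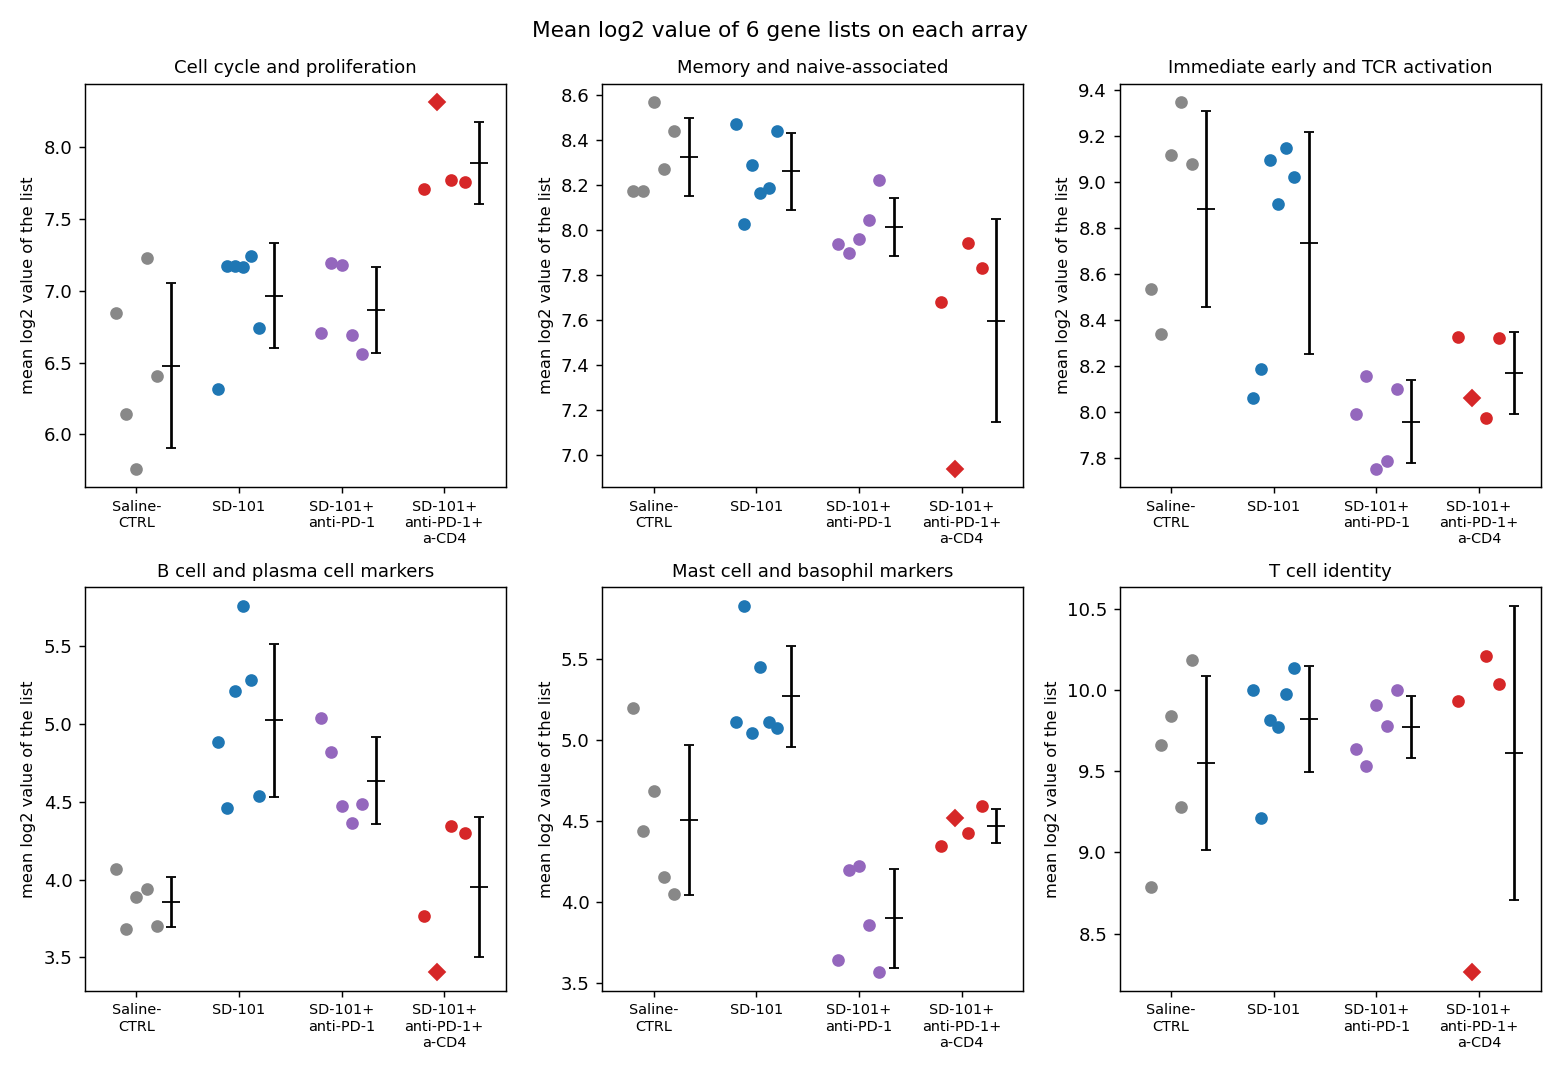
Mean log2 value of the measured members of 6 lists (y axis) on each array, by group (x axis), 1 point per array, with the group mean and SD in black and triple replicate 2 drawn as a diamond. In cell cycle the triple arrays (7.71 to 8.32) lie above all SD-101 arrays (6.31 to 7.24), while in T cell identity replicate 2 lies at 8.26, below every other array.

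Genes linked to memory and quiescence gave 3 called falls. Of 15 measured genes, 0 rose, 3 fell and 12 did not pass the test, against 0.409% of all genes that fell. The median difference was -0.60 log2, and 14 of the 15 were below 0, while 55.2% of all genes were above 0. Its mean over the members was 7.68, 6.94, 7.94 and 7.83 on the triple arrays and 8.03 to 8.47 on the SD-101 arrays, so every triple array was below every SD-101 array. Without triple replicate 2 the median was -0.48 and 0 members were called, and with the 4 cell type scores it was -0.39.

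Klf2, the quiescence factor named above, read 9.80, 9.10, 10.11 and 9.86 on the triple arrays and 10.46 to 11.67 with a median of 11.19 on the SD-101 arrays. The groups did not overlap. It fell by 1.42 ± 0.24 (adjusted p = 0.0145, exact 2-sided permutation p = 0.00952) and lost its call only without triple replicate 2, at an adjusted p of 0.0503. Klf2 differed by -0.88 for SD-101+anti-PD-1 against SD-101 and by -0.54 for the next step, so both steps ran in the same direction. With the 18S covariate its difference was -0.97. All 27 measured endothelial genes also had differences below 0, with a median of -1.53. Which cells carried the differences of Klf2 and of S1pr1, given below, was not tested.

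Foxp1, a factor that keeps T cells quiescent, read 9.01, 8.54, 9.13 and 9.20 against 9.35 to 9.87. It fell by 0.62 ± 0.14 (adjusted p = 0.0362), and 7 of 10 fits lost the call, those without SD-101 replicate 1, 3, 4 or 6 or triple replicate 1, 2 or 4. Bach2, a repressor that limits effector differentiation, read 6.16, 5.55, 6.98 and 6.72 against 6.99 to 8.04. It fell by 1.11 ± 0.25 (adjusted p = 0.0419), and the call was kept only without SD-101 replicate 2 or triple replicate 3. The adjusted p rose to 0.139 without triple replicate 2, and the 3 probe sets of Bach2 differed by -1.11 to -0.15. For both genes the triple arrays were below all SD-101 arrays, and the differences lay mainly in the last step, -0.49 for Foxp1 and -1.08 for Bach2, against -0.13 and -0.03 for SD-101+anti-PD-1 against SD-101.

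S1pr1, the receptor through which T cells leave tissue, read 7.18, 5.95, 7.37 and 6.93 against 7.39 to 8.33. Its difference of -1.0 ± 0.25 missed the threshold (adjusted p = 0.0539), although the groups did not overlap. Klf3, a relative of Klf2, differed by -0.60 ± 0.15 (adjusted p = 0.0575).

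Immediate early genes are switched on rapidly by receptor signals and stress. Of 29 measured genes of receptor activation and immediate early response, 0 rose, 3 fell and 26 did not pass the test, against 0.409% of all genes that fell, with a median of -0.78 log2. The list's mean was 8.33, 8.06, 7.98 and 8.32 on the triple arrays and 8.06 to 9.15 on the SD-101 arrays, so the groups overlapped. The overlap came from SD-101 replicates 1 and 2, at 8.06 and 8.19. The median was -0.80 for SD-101+anti-PD-1 against SD-101 and 0.00 for the next step. It was -0.18 with the 18S covariate and -0.34 with the 4 cell type scores.

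The promoter of Fos and that of Ppp1r15a, another stress-inducible gene that fell, are shown because both hold TGACGT, the core of the element that CREB and ATF factors read. Fos lies at chr12:85473740-85473889 (plus strand) and Ppp1r15a at chr7:45526269-45526418 (minus strand), both the 150 bases before the RefSeq start (GRCm38.p6) in the gene's direction, with the matches in capitals. In Ppp1r15a, matches on both strands overlap.
Fos: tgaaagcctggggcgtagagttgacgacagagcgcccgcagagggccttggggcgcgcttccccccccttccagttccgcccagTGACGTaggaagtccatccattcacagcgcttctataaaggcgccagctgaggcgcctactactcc
Ppp1r15a: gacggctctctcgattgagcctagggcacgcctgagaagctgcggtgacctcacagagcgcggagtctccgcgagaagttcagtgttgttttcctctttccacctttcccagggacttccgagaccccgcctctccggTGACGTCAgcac
On either strand, 9 of 30 windows of the immediate early list held TGACGT, 30%, against 5.15% of all windows. The windows of Fosb and Junb did not hold these letters.

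Fos, a subunit of the AP-1 transcription factor, read 11.67, 11.57, 11.43 and 11.74 on the triple arrays and 11.97 to 12.58 with a median of 12.50 on the SD-101 arrays. The groups were separate. Fos fell by 0.76 ± 0.12 (adjusted p = 0.0127) and kept its call in all 10 fits that left out 1 array. Fosb, its relative, read 6.78, 6.65, 5.78 and 6.48 against 6.91 to 9.35 and fell by 2.0 ± 0.45 (adjusted p = 0.0386). Junb, an AP-1 partner, read 9.21, 9.12, 9.01 and 9.04 against 9.52 to 10.91 and fell by 1.15 ± 0.27 (adjusted p = 0.0437). The lowest SD-101 arrays of Fosb and Junb came close to the triple arrays. Both kept their calls only without SD-101 replicate 1 or 2, with an adjusted p of up to 0.106.

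Ppp1r15a, which directs a phosphatase to a translation factor under stress, read 7.48, 6.81, 7.86 and 7.87 against 7.98 to 10.10 with a median of 9.93. It fell by 1.93 ± 0.42 (adjusted p = 0.0362), and the call was kept only without SD-101 replicate 1 or 2 or triple replicate 3, reaching 0.118 without triple replicate 2. Of 15 genes of heat shock and dissociation stress, 0 rose and 1 fell (0.409% of all genes fell), namely Fos, which that list also holds. The median was -0.34, but -0.13 without triple replicate 1, -0.14 with the 18S covariate and -0.17 with the replicate number as a block. Dnajb1, a chaperone partner, differed by -0.94 ± 0.27 (adjusted p = 0.0929). The list's mean was 9.41 to 9.89 on the triple arrays and 9.54 to 10.10 on the SD-101 arrays.

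Rgs2, a brake on G protein signalling, was the 1 of 18 tissue residency genes that fell, against 0.409% of all genes. It read 8.40, 7.11, 8.21 and 8.36 against 8.94 to 10.14 and fell by 1.65 ± 0.32 (adjusted p = 0.024), lost without SD-101 replicate 3 or triple replicate 2 (up to 0.0712). The median of the 18 was -0.34, and -0.19 without triple replicate 2, -0.01 with the 4 cell type scores and 0.08, in the other direction, with the 18S covariate. Cd69, an early activation and residency receptor, read 8.44, 6.79, 8.74 and 8.76 against 8.20 to 10.71, with overlap. Its difference of -1.66 ± 0.50 did not pass the test (adjusted p = 0.104).

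None of the listed effector genes of CD8+ T cells was called, where 0.983% of all genes were. For lists of this size, here and below, 0 calls are near that share. Of 29 measured cytotoxic effector genes, 0 were called in limma, 8 had an unadjusted p under 0.05 (2846 of all 17097), and the median was -0.02, or 0.27 without triple replicate 2 and 0.31 with the 4 cell type scores. Gzmb, the granzyme B protease, read 11.12, 9.27, 11.50 and 10.91 on the triple arrays and 9.79 to 10.49 on the SD-101 arrays. The other 3 triple arrays were above all SD-101 arrays, and replicate 2 was below them. The difference was 0.52, with a 95% interval from -0.36 to 1.39. Prf1, the pore-forming perforin, differed by 0.31 (-0.53 to 1.16) and Ifng, interferon gamma, by 0.08 (-1.0 to 1.16). These intervals leave room for differences of about the size of the called genes.

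Gzmk, another granzyme, read 10.48, 8.70, 10.57 and 10.18 against 8.83 to 9.54, a difference of 0.86 ± 0.31 (adjusted p = 0.166). Without triple replicate 2 it rose by 1.29 (adjusted p = 0.0354), and it was the 1 member of the list called in that fit. With the T cell identity score as a covariate, an alternative chosen after seeing the data, it rose by 1.02 (adjusted p = 0.00845). Gzmd and Gzme, granzymes of a neighbouring gene cluster, differed by 0.71 ± 0.17 and 0.96 ± 0.25 (adjusted p = 0.0518 and 0.0725). They belong to a family of similar sequences whose probes may not tell members apart. Their values were split, with Gzmd at 3.57 and 3.49 on triple replicates 1 and 2 and 2.40 and 2.65 on replicates 3 and 4, against 2.19 to 2.48 on the SD-101 arrays.

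Pdcd1, the gene of PD-1 itself, read 9.35, 7.25, 9.06 and 9.10 on the triple arrays and 6.35 to 8.21 with a median of 7.35 on the SD-101 arrays. All triple arrays except replicate 2 were above all SD-101 arrays. The difference was 1.43 ± 0.45 (95% interval 0.49 to 2.37), with an adjusted p of 0.119 and an exact 2-sided permutation p of 0.0381. It was 1.91 without triple replicate 2 (adjusted p = 0.0584) and 1.57 with the T cell identity covariate (adjusted p = 0.0415). It was 0.20 for SD-101+anti-PD-1 against SD-101 and 1.24 for the next step. Of 17 inhibitory receptor and exhaustion genes, 0 were called, and the median was 0.26. Left-out arrays moved it from 0.02 without SD-101 replicate 2, 0.05 without triple replicate 1 and 0.08 without SD-101 replicate 1 up to 0.60 without triple replicate 2, and without both SD-101 replicates 1 and 2 it was -0.16. Nr4a1, an orphan nuclear receptor induced by antigen, differed by -1.49 ± 0.37 (adjusted p = 0.0532).

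**Figure D3:**
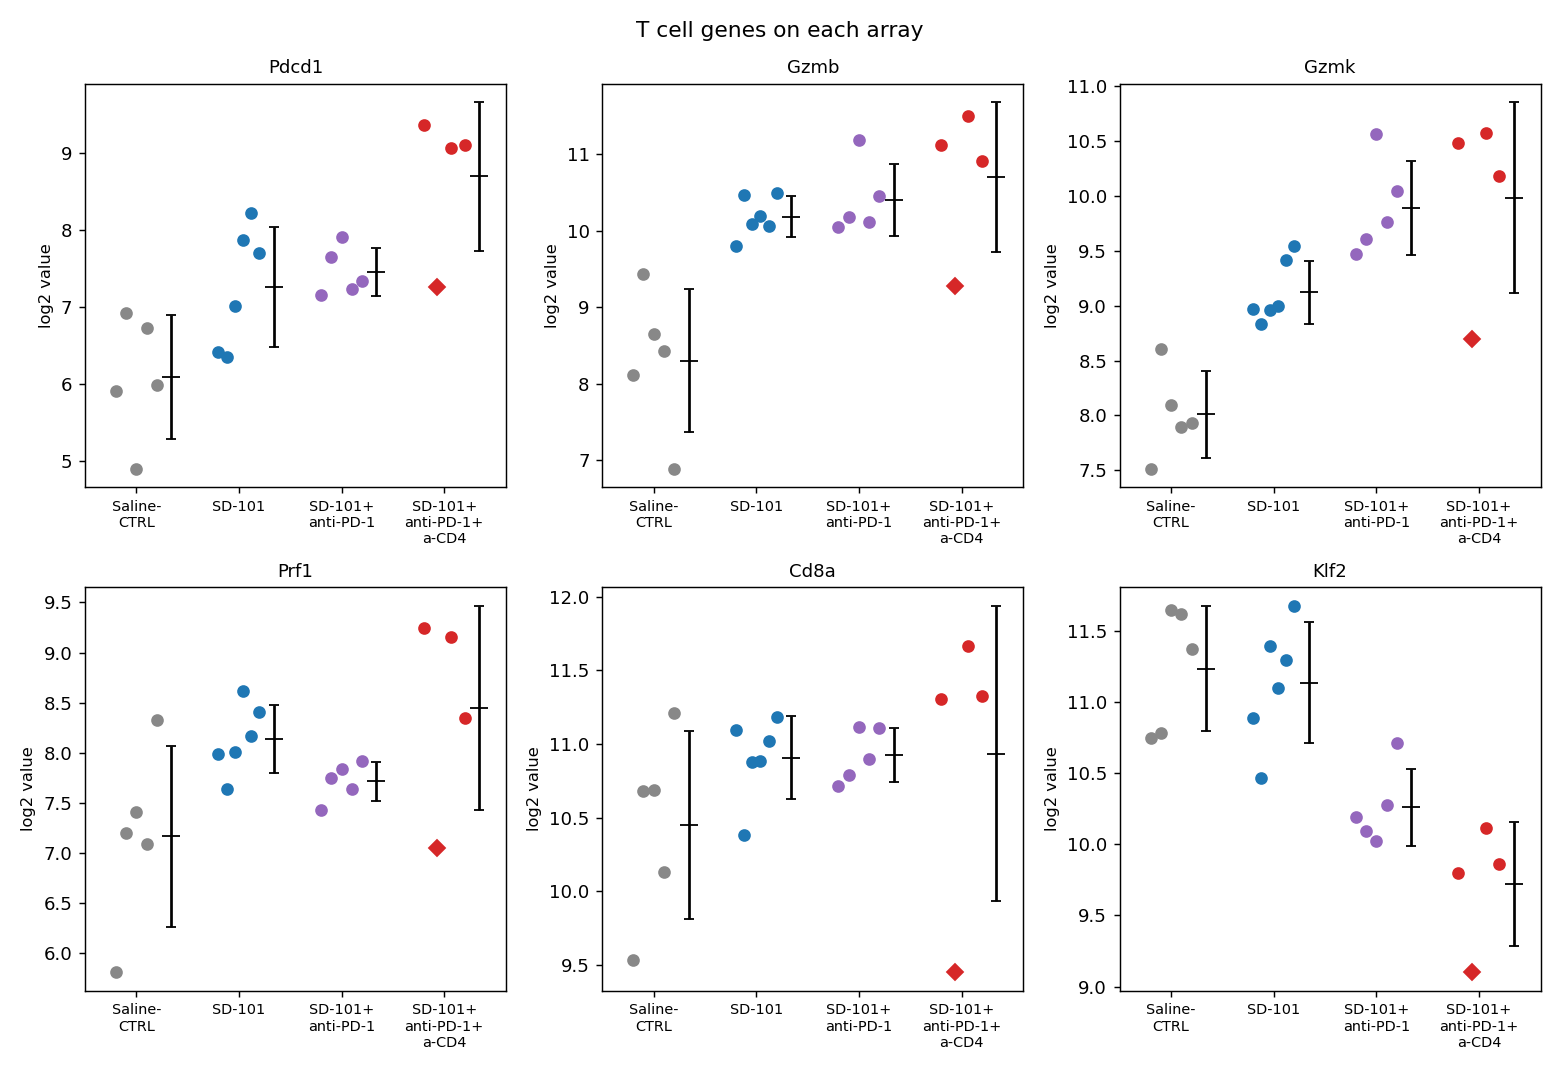
Log2 value (y axis) of 6 T cell genes on each array, by group (x axis), 1 point per array, with the group mean and SD in black and triple replicate 2 as a diamond. Replicate 2 is the lowest triple array for all 6 genes, while the other 3 triple arrays lie above all SD-101 arrays for Pdcd1, Gzmb, Gzmk and Cd8a and below them for Klf2.

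Costimulatory receptors and PD-1 ligands had 0 of 18 called, with a median of 0.02, which ran from -0.13 without triple replicate 1 to 0.25 without triple replicate 2. Cd274, the ligand PD-L1, differed by 0.02 (-0.48 to 0.52). Tnfrsf4, the costimulatory receptor OX40, differed by 0.85 ± 0.29 (adjusted p = 0.156), and Cd40, a receptor of antigen-presenting cells, by -1.06 ± 0.29 (adjusted p = 0.0854). Of 14 measured genes of CD4+ and regulatory T cells, 0 were called, and the median was 0.24, or 0.11 without SD-101 replicate 2 and 0.13 without triple replicate 4. Foxp3, the defining factor of regulatory T cells, read 4.06, 4.01, 4.46 and 4.19 on the triple arrays and 3.48 to 3.84 on the SD-101 arrays. Each triple array was above each SD-101 array, at low values. The difference of 0.57 ± 0.14 missed the threshold (adjusted p = 0.0518, exact 2-sided permutation p = 0.00952), and against SD-101+anti-PD-1 it rose by 0.63 (adjusted p = 0.0265). Il2ra, the high-affinity IL-2 receptor chain that regulatory T cells also carry, differed by -0.70 (-1.39 to -0.02, adjusted p = 0.286).

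None of the interferon genes listed was called, against 0.983% of all genes. Of 31 type I interferon-stimulated genes, 0 were called, with 3 at an unadjusted p under 0.05 (2846 of all 17097) and a median of 0.12, which was -0.0049 without triple replicate 3, 0.06 without triple replicate 1, 0.07 without SD-101 replicate 4 and 0.20 without triple replicate 2. Isg20, an antiviral exonuclease, read 9.34, 8.84, 9.65 and 9.11 against 8.29 to 8.83 and was the 1 member with separate groups, at 0.60 ± 0.16 (adjusted p = 0.0725). Of 28 genes of interferon-gamma-linked GTPases and antigen presentation, 0 were called, with 8 at an unadjusted p under 0.05 and a median of 0.17, or 0.09 without triple replicate 1 and 0.28 without triple replicate 2. Gbp2, a guanylate-binding protein, differed by 0.53 ± 0.14 (adjusted p = 0.0725). Of 17 genes of TLR9 signalling, 0 were called, and the median was -0.06, with values on either side of 0 when single arrays were left out (-0.12 to 0.03). Ikbkb, the kinase that releases NF-kappa B, differed by -0.71 ± 0.18 (adjusted p = 0.0644), with all triple arrays below all SD-101 arrays. Of 18 genes of IL-2 and STAT5 signalling, 0 were called, with a median of -0.34, or -0.15 without triple replicate 2. Il15ra, a receptor chain for IL-15, differed by 0.57 ± 0.16 (adjusted p = 0.094), and its groups were separate.

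The helper cytokine and receptor list gave 1 called fall among its 21 measured genes, against 0.409% of all genes that fell. Csf2, the growth factor GM-CSF, read 6.17, 5.76, 7.39 and 6.27 on the triple arrays and 7.06 to 9.0 with a median of 8.32 on the SD-101 arrays. Only triple replicate 3 overlapped the SD-101 arrays. Csf2 fell by 1.81 ± 0.38 (adjusted p = 0.0346), lost without SD-101 replicate 3, 4 or 5 or triple replicate 1, 2 or 4 (up to 0.108). It differed by -0.04 for SD-101+anti-PD-1 against SD-101 and fell by 1.76 in the next step (adjusted p = 0.0282). Il5, a cytokine for eosinophils, differed by -1.17 ± 0.35 (adjusted p = 0.103). The other 20 of the 21 measured helper cytokine and receptor genes were not called, and the median was 0.04, or 0.19 without triple replicate 2 and -0.05 with the 18S covariate. Chemokines and their receptors in T cells had 0 of 16 called, and myeloid and stromal chemokines 0 of 23.

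Among the metabolic lists, glycolysis gave 1 call. All 18 glycolysis genes had differences above 0, against 55.2% of all genes, with a median of 0.48. Of the 18, 1 rose, against 0.573% of all genes. Hif1a, the hypoxia-inducible factor, read 9.87, 9.60, 9.74 and 9.84 against 9.12 to 9.39 and rose by 0.50 ± 0.11 (adjusted p = 0.0362). Its groups were separate, but the call was kept only without SD-101 replicate 2 or 6, and the adjusted p was up to 0.1. The 2 probe sets of Hif1a differed by 0.01 and 0.50. Gapdh, a glycolytic enzyme, differed by 0.50 ± 0.13 (adjusted p = 0.0579). As a mean, the list read 8.70, 9.25, 8.38 and 8.66 on the triple arrays and 7.96 to 8.64 on the SD-101 arrays, with replicate 2 again the highest, and the median without it was 0.33. The median over 29 genes of oxidative phosphorylation was 0.12, with 0 called. Sdhb, a subunit of succinate dehydrogenase, differed by 0.27 ± 0.07 (adjusted p = 0.0518). Of 17 genes of cholesterol synthesis and 15 of the circadian clock, 0 were called, with medians of 0.25 and 0.03, the former being -0.24 with the 18S covariate.

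Genes known from other blood cells were among the largest falls. Ncr1, the NK cell receptor NKp46, read 3.62, 3.08, 5.03 and 4.79 on the triple arrays and 6.01 to 8.06 with a median of 6.85 on the SD-101 arrays. The groups did not overlap. Ncr1 fell by 2.89 ± 0.41 (adjusted p = 0.0118) and was called in all 10 fits that left out 1 array. It differed by -1.77 for SD-101+anti-PD-1 against SD-101 (adjusted p = 0.0144) and by -1.12 for the next step. It was the 1 of 13 measured NK cell genes called, against 0.409% of all genes that fell, and the list's median was -0.35. That median ran from -0.57 without triple replicate 3 and -0.55 without SD-101 replicate 2 to -0.22 without triple replicate 2 and -0.17 without SD-101 replicate 4. The NK list's mean was 4.08 to 5.21 on the triple arrays and 4.92 to 6.07 on the SD-101 arrays.

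Of 17 measured B cell and plasma cell genes, 0 rose, 2 fell and 15 did not pass the test, against 0.409% of all genes that fell, with a median of -0.60. All 4 triple arrays were below all 6 SD-101 arrays for 6 of the 17, against 1.72% of all genes. The list's mean was 3.77, 3.40, 4.34 and 4.30 on the triple arrays and 4.46 to 5.76 on the SD-101 arrays, with no overlap. Without triple replicate 2 the median was -0.44 and 0 members were called. With the 18S covariate the median was -0.69, and with the 4 cell type scores, which hold this list's own score, it was 0.03. Pou2af1, a B cell coactivator, read 3.80, 2.56, 4.86 and 5.03 against 5.21 to 7.50. It fell by 2.35 ± 0.46 (adjusted p = 0.0262), lost without SD-101 replicate 3 or triple replicate 1 or 2 (up to 0.0735). Cd22, an inhibitory receptor of B cells, read 3.74, 3.90, 4.44 and 4.49 against 4.55 to 8.57. It fell by 2.40 ± 0.49 (adjusted p = 0.0307), lost without SD-101 replicate 1 or 3 or triple replicate 1, 2 or 4 (up to 0.0827).

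Ms4a1, the B cell gene CD20, read 2.83 to 2.91 on the triple arrays, near the floor, and 3.22 to 6.77 on the SD-101 arrays. Its difference was -1.74 ± 0.43 (adjusted p = 0.0535). Jchain, the joining chain of secreted antibodies, read 7.82, 6.59, 9.28 and 9.24 against 9.44 to 11.32 and differed by -2.34 ± 0.63 (adjusted p = 0.0766). H2-Ob, part of a modulator of class II peptide loading found in B cells, read 3.78, 3.05, 5.00 and 4.71 against 5.69 to 7.24. It fell by 2.48 ± 0.41 (adjusted p = 0.0127) and kept its call in all 10 fits that left out 1 array. The 2 probe sets of H2-Ob differed by -2.48 and -0.28, so the call rests on the former. H2-Ob was the 1 of 15 genes of MHC class II presentation called, against 0.409% of all genes that fell, and the list's median was -0.18. That median was -0.01 without SD-101 replicate 4, -0.02 without SD-101 replicate 2, -0.09 without triple replicate 4, -0.12 without SD-101 replicate 3, -0.30 without SD-101 replicate 1 and -0.43 without SD-101 replicate 6, and 0.11 with the 4 cell type scores. Saline arrays had a B cell list mean of 3.68 to 4.07, below the SD-101 arrays and within the range of the triple arrays. H2-Ob differed from the list in this, with a mean of 6.18 on the saline arrays and 6.61 on the SD-101 arrays.

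Of 13 measured mast cell and basophil genes, 2 fell and 0 rose, against 0.409% of all genes that fell. The median was -0.85, with 9 differences below 0 and 4 above, up to 1.08. In the list's mean the triple arrays were below the SD-101 arrays (4.35 to 4.59 against 5.04 to 5.83). For SD-101+anti-PD-1 against SD-101 the median was -1.45, with 7 of the 13 fallen (1.25% of all genes), and for the next step it was 0.83. Cma1, mast cell chymase, read 3.66, 4.61, 3.76 and 4.05 against 4.96 to 6.78 with a median of 6.33. It fell by 2.08 ± 0.30 (adjusted p = 0.0118) and was called in all 10 fits. It fell by 2.99 for SD-101+anti-PD-1 against SD-101 (adjusted p = 5e-05) and differed by 0.90 in the other direction in the next step. Kit, the receptor for stem cell factor, fell by 1.39 ± 0.33 (adjusted p = 0.0486), with triple replicate 1 at 6.93 inside the SD-101 range of 6.89 to 8.57. Its call was kept only without SD-101 replicate 6. Unlike Cma1, with means of 3.54 on saline and 6.10 on SD-101 arrays, Kit was high on both, at 8.01 and 7.70. Cpa3, mast cell carboxypeptidase, read 5.02 to 5.88 against 6.86 to 7.50 and differed by -1.61 ± 0.40 (adjusted p = 0.0538). The list's median was -0.75 with the 18S covariate, -0.55 with the 4 cell type scores and -0.53 without SD-101 replicates 1 and 2.

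Of 25 macrophage and monocyte genes, 1 fell, against 0.409% of all genes that fell, and the median was -0.80. Arg1, arginase, read 3.93, 3.83, 5.51 and 4.95 against 6.35 to 7.41 with a median of 6.58, so the groups were separate. It fell by 2.16 ± 0.35 (adjusted p = 0.0127) and kept its call in all 10 fits that left out 1 array. It differed by 0.10 for SD-101+anti-PD-1 against SD-101 and fell by 2.26 in the next step (adjusted p = 0.00555), unlike the list's median, which was -0.78 and then 0.02. The list's mean was 4.65 to 5.48 on the triple arrays and 5.03 to 7.59 on the SD-101 arrays, the highest being SD-101 replicate 4, without which the median moved to -0.37. With the 4 cell type scores, which hold this list's own score, it was -0.08. Cysltr1, a leukotriene receptor, read 3.40, 3.11, 4.56 and 5.43 against 5.89 to 6.74. It fell by 2.30 ± 0.41 (adjusted p = 0.0177), lost without triple replicate 1 or 2 (up to 0.0643). Rgs18, a regulator of G protein signalling in blood cells, read 4.14, 3.0, 4.23 and 4.06 against 5.44 to 6.48 and fell by 2.08 ± 0.36 (adjusted p = 0.0145), lost without triple replicate 2 (0.0503). The differences of these genes lay in the last step, -2.14 for Cysltr1 and -1.83 for Rgs18. Dtx1, a ubiquitin ligase of the Notch pathway, read 6.63, 5.65, 7.90 and 7.77 against 8.09 to 9.45. It fell by 1.98 ± 0.36 (adjusted p = 0.0191), lost without triple replicate 1 or 2 (up to 0.0647). The 2 probe sets of Dtx1 differed by -1.98 and -0.09.

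Neutrophil genes were unequal among the triple arrays. Of 16 measured, 0 were called and 1 had an unadjusted p under 0.05, with a median of 1.30, or 0.77 without triple replicate 1 and 0.06 with the 18S covariate. Their mean was 8.89, 6.33, 4.43 and 6.23 on the triple arrays and 4.28 to 5.68 on the SD-101 arrays. S100a8, an abundant neutrophil protein gene, ranged from 4.62 to 11.90 within the triple arrays. Lists of dendritic cells (11 genes, median -0.36), eosinophils (8 genes, 0.13), gamma-delta T cells (5 genes, -0.73) and erythroid cells and platelets (8 genes, -0.34) had 0 called. With the 18S covariate the gamma-delta median was 0.01, and without SD-101 replicate 4 the dendritic cell median was -0.10.

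**Figure D4:**
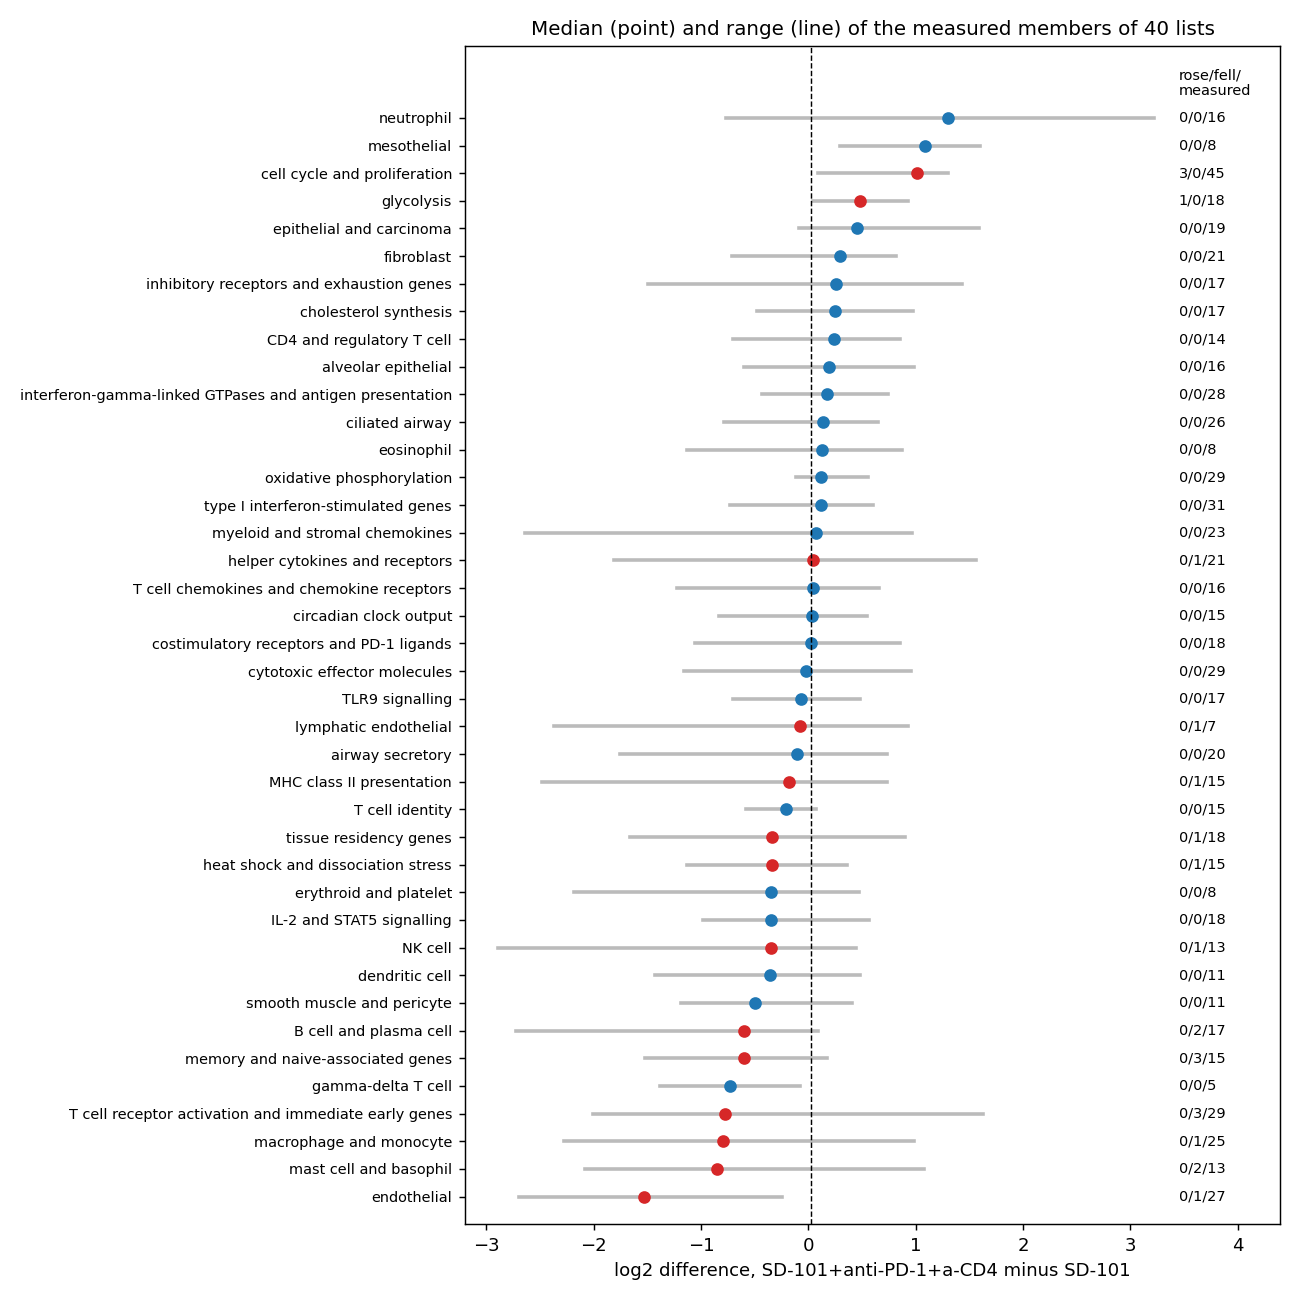
Log2 difference between SD-101+anti-PD-1+a-CD4 and SD-101 (x axis) for 40 lists (y axis), with the median of the measured members as a point, their range as a grey line, and at the right the number that rose, fell and were measured. Red points mark lists with at least 1 called gene, and the dashed line is the median of all genes (0.03), with cell cycle at 1.02 and endothelial at -1.53.

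Most endothelial genes did not pass the test in this comparison. All 27 measured endothelial genes had differences below 0, while 55.2% of all genes were above 0, and the median was -1.53. Of the 27, 26 had an unadjusted p under 0.05 in limma (2846 of all 17097), while 1 was called to have fallen (0.409% of all genes). For SD-101+anti-PD-1 against SD-101, 25 of the 27 fell (1.25% of all genes), with a median of -2.80. For the triple arrays against SD-101+anti-PD-1, 1 of the 27 rose (0.948% of all genes), with a median of 1.29. Aplnr, the apelin receptor, read 5.95, 4.83, 5.55 and 4.88 against 5.74 to 9.46 with a median of 8.39, and the groups overlapped. It fell by 2.70 ± 0.63 (adjusted p = 0.0461), and the call was kept only without SD-101 replicate 6. Aplnr fell by 4.50 for SD-101+anti-PD-1 against SD-101 (adjusted p = 0.00076) and differed by 1.81 in the next step. Pecam1, the endothelial adhesion gene CD31, differed by -1.52 ± 0.39 (adjusted p = 0.0636). The endothelial list's mean was 7.53, 6.53, 6.54 and 6.12 against 6.64 to 9.02. The list's median was -0.31 with the 18S covariate and -0.04 with the 4 cell type scores, which hold this list's own score. Myct1 fell by 2.39 ± 0.51 (adjusted p = 0.0362), with steps of -2.79 and 0.41, and lost its call without SD-101 replicate 1, 3 or 4 or triple replicate 1, 2 or 4 (up to 0.0943).

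Stab2, a scavenger receptor for hyaluronan, was the 1 of 7 lymphatic endothelial genes called, against 0.409% of all genes that fell. The list's median was -0.07, with 6 differences below 0 and 1 above, at 0.93. Stab2 read 3.54, 3.25, 4.97 and 4.88 against 5.93 to 7.01 with a median of 6.56, with separate groups. Stab2 fell by 2.37 ± 0.40 (adjusted p = 0.0135) and kept its call in all 10 fits. It differed by -0.09 for SD-101+anti-PD-1 against SD-101 and fell by 2.28 in the next step (adjusted p = 0.0118). Scn7a, a sodium channel gene, read 6.97, 5.38, 6.70 and 6.01 against 6.77 to 9.0. It fell by 1.90 ± 0.39 (adjusted p = 0.0307), with steps of -1.69 and -0.21, lost without SD-101 replicate 1, 3 or 4 or triple replicate 2 or 4 (up to 0.0955).

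Epithelial lists had no called gene in this comparison. The ciliated airway list, 26 genes, had a median of 0.14, and medians of 1.37 and -1.39 for the steps to and from SD-101+anti-PD-1, with 21 of the 26 risen in the former (3.52% of all genes) and 17 fallen in the latter (1.18% of all genes). The airway secretory list, 20 genes, had a median of -0.10, with step medians of 1.07 and -1.42, and the alveolar list, 16 genes, 0.20, with step medians of 1.09 and -0.81. With the 18S covariate the ciliated and alveolar medians were -0.45 and -0.84. The epithelial and carcinoma list had a median of 0.46 over 19 genes, or -0.08 with the 18S covariate. Krt7, a keratin of simple epithelia, read 9.23, 10.01, 8.71 and 8.63 against 7.61 to 8.54 and differed by 1.08 ± 0.36 (adjusted p = 0.146). The mesothelial list, 8 genes, had a median of 1.09, or 0.16 with the 18S covariate. Msln, mesothelin, read 8.62, 9.13, 8.10 and 8.05 against 6.29 to 8.01 and differed by 1.56 ± 0.40 (adjusted p = 0.0597). Fibroblast genes (21, median 0.29, or -0.27 with the 18S covariate) and smooth muscle genes (11, median -0.49) had 0 called. The high values of lung genes in cells sorted as T cells were present in both groups.

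The largest rises outside cell division were of genes that are not T cell markers. Slc38a4, an amino acid transporter, read 5.75, 6.19, 5.08 and 6.53 against 3.03 to 3.84. It rose by 2.40 ± 0.47 (adjusted p = 0.0262), lost without SD-101 replicate 1 or 3 or triple replicate 1, 2 or 4 (up to 0.0703). Sfrp2, a secreted modulator of Wnt signals, read 7.18, 7.78, 6.19 and 8.39 against 4.43 to 5.65. It rose by 2.39 ± 0.50 (adjusted p = 0.0342), lost without SD-101 replicate 1, 3 or 4 or triple replicate 1, 2 or 4 (up to 0.0943). Both differed in each step, by 1.32 and 1.09 for Slc38a4 and by 1.90 and 0.49 for Sfrp2.

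Penk, the precursor of enkephalin peptides, read 7.46, 6.67, 6.18 and 8.36 against 4.43 to 5.23 with a median of 4.81. It rose by 2.34 ± 0.36 (adjusted p = 0.0127), kept its call in all 10 fits, and rose by 1.84 against SD-101+anti-PD-1 (adjusted p = 0.0178). B4galnt4, a glycosyltransferase, read 6.90, 5.93, 6.69 and 6.13 against 4.69 to 5.17, rose by 1.43 ± 0.23 (adjusted p = 0.0127) and also kept its call in all 10. For both genes the groups were separate. Smpdl3b, a phosphodiesterase of the cell surface, read 7.71, 8.04, 7.44 and 7.23 against 5.36 to 6.69 and rose by 1.47 ± 0.27 (adjusted p = 0.0177), lost without triple replicate 1 or 2 (up to 0.0566). Its steps were -0.06 and 1.54.

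Bcl2l15, of the BCL2 family of cell death regulators, read 6.25, 4.81, 4.04 and 5.33 against 3.11 to 4.04, so that triple replicate 3 lay just under the highest SD-101 array. It rose by 1.66 ± 0.31 (adjusted p = 0.0204), lost without SD-101 replicate 3 or triple replicate 1 or 4 (up to 0.0612). Mpzl2, an adhesion molecule of epithelia, read 5.98, 6.16, 5.80 and 6.06 against 3.95 to 5.22 and rose by 1.44 ± 0.34 (adjusted p = 0.048). Its call was kept only without SD-101 replicate 2, and unlike the genes of cell division its difference lay in the step to SD-101+anti-PD-1, at 1.24 against 0.21.

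**Figure D5:**
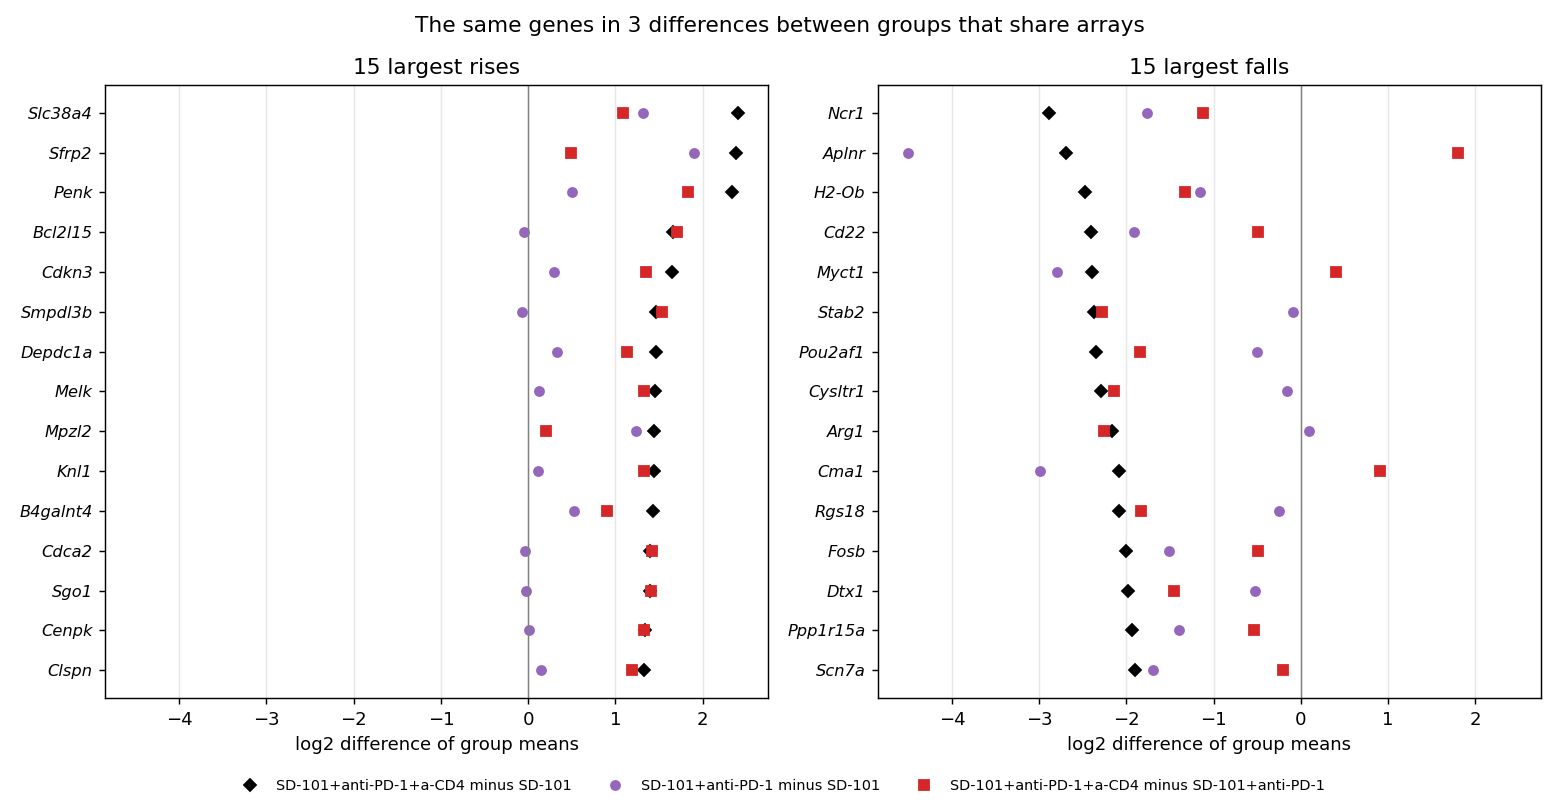
Log2 difference of group means (x axis) for the same 30 genes, comparing the triple arrays with SD-101 (black diamonds), SD-101+anti-PD-1 with SD-101 (purple circles) and the triple arrays with SD-101+anti-PD-1 (red squares), which share arrays. For Knl1, 0.11 and 1.33 make up 1.44, whereas for Aplnr the steps are -4.50 and 1.81.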

How the data were processed

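Total RNA from the sorted T cells was hybridised to 20 Affymetrix arrays (5 saline, 6 SD-101, 5 SD-101+anti-PD-1, 4 triple treatment). The authors deposited log2 values per probe set, from 1.78 to 13.44 with array medians of 3.52 to 3.75; affy, RMA and limma, and the build mm8, are named in the submitters' processing notes without roles or versions. No coordinates of that build were used. The values were used as deposited. RMA, where it was used, scales arrays to each other, which can hide a shift of total RNA. Separately, changes near the floor may be compressed.

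Of 45141 probe sets, 28898 carried 1 gene symbol in the platform annotation, 551 several and 15692 none. Each of 17097 genes was read from its probe set of highest mean over all arrays, and 7180 genes had several. Of the 168 called genes, 82 had several, and for 72 of those all probe sets differed in the same direction. One limma model (version 3.58.1, R 4.3.3) held all 4 groups, and p-values were adjusted over all genes by Benjamini-Hochberg. Named genes were the 15 largest called rises and falls, up to 5 members of smallest p per list, and singly fixed genes, while predicted genes and receptor segments were counted only. The members of the comparison and the 40 gene lists were chosen with earlier results of these data known. A list was described by counts, its median and its mean log2 value per array, with 95% intervals for single genes.

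On simulated data of 17097 genes for this comparison, 86% of 100 genes changed by 1 log2 unit and 98% of 100 changed by 2 were recovered, and 4.17% of calls were false. The simulated noise was independent for each gene and array, with no array-wide deviation or difference in cell mix. The rates therefore check the procedure and do not describe the real arrays, which had such deviations. The alternatives were the mean of probe sets, centring, quantile normalization, a filter at the median level, a trended robust fit, array weights, only the compared groups, the replicate number as a block, 4 cell type scores as covariates and each array left out. Alternatives added after seeing the data were the T cell identity score and the 18S control value as covariates, and leaving out both SD-101 arrays of lowest immediate early score. The number of arrays limits the precision, with a median SE of 0.145 log2. Promoter windows came from RefSeq (GRCm38.p6).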

Additional observations from a re-analysis of the deposited data

Results flagged for a closer look

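Single arrays lay far from the rest of their group, by the gap to the nearest array over the group's range (Dixon's 95% value), for 10 of 182 gene groups (5.49%) and 10 of 80 list means (12.5%). Chance alone marks about 1 in 20 groups, and genes of a list share their arrays. Most involved triple replicate 2. It was lowest for Cd8a (9.45, nearest triple array 11.30), Ptprc (10.32, nearest 11.67), Pdcd1 (7.25, nearest 9.06), Cd69 (6.79, nearest 8.44), Rgs2 (7.11, nearest 8.21), Rgs18 (3.0, nearest 4.06) and Il5 (2.86, nearest 3.62). The same array was lowest in the list means of T cell identity (8.26, nearest 9.93), inhibitory receptors (5.74, nearest 7.16), costimulatory receptors (5.56, nearest 6.68), T cell chemokines (5.96, nearest 7.18), tissue residency (7.30, nearest 8.13) and helper cytokines (4.73, nearest 5.15). It was highest in the cell cycle list (8.32, nearest 7.78) and for Sgo1 (7.61, nearest 6.85).

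In the SD-101 group, replicate 1 was lowest for Cdkn3 (4.32, nearest 5.22) and for the heat shock list (9.54, nearest 9.95). SD-101 replicate 2 was lowest for Tnfrsf4 (4.95, nearest 5.93) and highest in the cholesterol synthesis list (6.81, nearest 6.36). Triple replicate 3 was lowest in the dendritic cell list (4.55, nearest 5.0).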

How the results depend on the processing

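Each of the 168 called genes kept its direction in the alternatives that tested it, except Aplnr with the 4 cell type scores as covariates (0.069, adjusted p = 0.996). Counts moved more than directions, but leaving out 1 array could not reverse the genes whose groups were separate. The cause of the moved counts was not tested. The main counts were 168 called (98 risen, 70 fallen), 816 and 364 for the steps to SD-101+anti-PD-1 and from it, and 21 calls within lists. Leaving out each array gave 35 to 220 called, 18 to 107 risen, 11 to 123 fallen, 373 to 1040 and 73 to 488 for the steps, 7 to 33 within lists, and 3 to 6 exact tests under 0.05 in place of 4. Array weights gave 603 called (321 risen, 282 fallen), 2760 and 1246 for the steps and 75 within lists. The T cell identity covariate gave 595 (309 and 286), 780 for the latter step and 77 within lists, and all 168 genes stayed called. Only the 2 compared groups in the fit gave 56 (34 and 22) and 9 within lists. The 4 cell type scores gave 0 called (0 and 0; 945 at an unadjusted p under 0.05 in limma), 0 and 6 for the steps and 0 within lists. The 18S covariate gave 1 (1 and 0), 1 for the former step and 0 within lists. Leaving out both SD-101 arrays of lowest immediate early score gave 93, of which 28 had risen, and 1261 for the former step. The filter at the median level, which tested 8548 genes, gave 115 fallen, 325 and 149 for the steps and 41 within lists. Centring gave 57 risen. Deviations of same-numbered SD-101 and triple arrays correlated at -0.036, 0.408, -0.332 and -0.140. These values cannot tell whether the replicate numbers pair the samples. With the replicate number as a block, 250 genes were called, 55 risen and 195 fallen, of which 98 were among the 168, with 242 for the latter step and 40 within lists. Probe sets not far above the array floor, such as those of Tlr9, limit what can be measured there.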
